A study of Mus musculus with 12 samples.

Results

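The hedgehog receptors, co-receptors and targets of the developing mouse ear were measured through 27 probe sets of 10 genes, Gli1, Gli2, Gli3, Ptch1, Hhip, Gas1, Cdon, Boc, Smo and Sufu. A probe set is a group of short oligonucleotides on an Affymetrix mouse genome array that report 1 transcript. The genes were chosen by name, and every probe set listed with exactly 1 of them was taken, out of 45101 probe sets on each of 12 arrays. The probe sets listed with exactly 1 gene cover 18194 genes in all. Gli1 had 1 probe set, Gli2 and Cdon had 2 each, Hhip had 4, and the other 6 genes had 3 each.

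There were 6 groups of 2 arrays. Wild-type otic vesicles, the epithelial sacs that form the inner ear, were dissected at E10 and at E10.5 (embryonic day), and vesicles labelled Dlx5-null were dissected at the same stages. Dlx5 encodes a homeodomain transcription factor of the dorsal vesicle, and the labels do not describe the null allele further. Each vesicle array carried RNA of a pool of 4 to 8 vesicles from somite-staged embryos, cleaned of mesenchyme in dispase at 1 mg/ml. The other groups were cultures of 2B1, a line from the otic vesicle, grown at 32 °C with gamma-interferon and transfected with a vector for Dlx5 and GFP or for GFP alone. All 2B1 cultures then spent 4 days at 37 °C without gamma-interferon, under which they differentiate. The vesicle replicates are separate pools and the 2B1 replicates are separate cultures, all 2B1 cultures being of a single line.

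Hedgehog ligands such as Shh, which reaches the ventral vesicle from the notochord and floor plate, bind Ptch1 together with the co-receptors Gas1, Cdon and Boc. Binding lifts the block that Ptch1 puts on the membrane protein Smo, and Smo in turn frees the Gli transcription factors from Sufu. Gli2 is the main activator, Gli3 is largely a repressor, and Gli1, Ptch1 and Hhip are transcribed in response, so their RNA is widely used as a measure of signalling. In the ear the pathway is known for its part in ventral fates, among them the cochlea.

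The deposited values are log2 expression from RMA, a method that corrects, quantile-normalizes and summarises the probes, and the number of arrays limits the precision of every value. The Dlx5 probe set went against the label: it lay at 6.20, 6.30, 6.12 and 6.11 across the wild type, under 7.27, 8.02, 7.97 and 7.97 across the arrays labelled Dlx5-null. The mutant vesicles are therefore called labelled-null throughout, and every direction between them rests on the label. Where this probe set lies relative to the deleted part was not examined. In 2B1 cells it read 5.14 and 4.80 after Dlx5 transfection, and 4.66 and 4.79 in the controls. Of 8 vesicle arrays, 3 had a narrower spread of values (SD 2.32 to 2.38 over probe sets) than the other 5 (2.45 to 2.47): the first replicate of each genotype at E10 and the second labelled-null replicate at E10.5. Array means were 6.10 to 6.11 in the vesicles and 5.76 to 5.82 in 2B1 cells, with maxima of 14.9 and 15.4, so the sets appear separately normalized and no level is set across them.

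The tissue labels were checked against marker genes. All 14 otic epithelium genes on the array stood above the level that excludes the dimmest 25% of probe sets (4.65), and Oc90, one of them, read 10.75 to 13.28 in the vesicles. In 2B1 cells 10 of the 14 stood above the corresponding level (4.36), with Pax8, Hmx3, Tbx2 and Otx1 below it. The collagen gene Col1a1, a periotic mesenchyme marker, had means of 13.7 and 9.97 at its probe sets in 2B1 cells. Of 18 mesenchyme markers 15 stood above the level there, with Pou3f4, Lum and Tcf21 below it. In the vesicles, 17 of 18 mesenchyme markers and 7 of 10 markers of hindbrain, floor plate and notochord stood above 4.65. These levels are low: of 34958 probe sets, 26218 passed in the vesicles and 26202 in 2B1 cells. The counts for otic genes in 2B1 cells and for hindbrain markers in the vesicles are no higher than that share. They do not show that these tissues are present. The summed signal of a pool or culture cannot separate fewer cells of a kind from less RNA per cell.

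Of the 27 probe sets, 22, covering all 10 genes, passed the filter on dim probe sets in the vesicles and were tested. The other 5 were 3 of Hhip, 1 of Boc and 1 of Smo. In 2B1 cells 20 probe sets of 9 genes passed, and both of Gli2 did not. A probe set was called at an adjusted p under 0.05 (limma, Benjamini-Hochberg over all probe sets tested). Probe sets of 1 gene share a transcript and are not independent, and levels are compared within a probe set only.

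**Figure D1:**
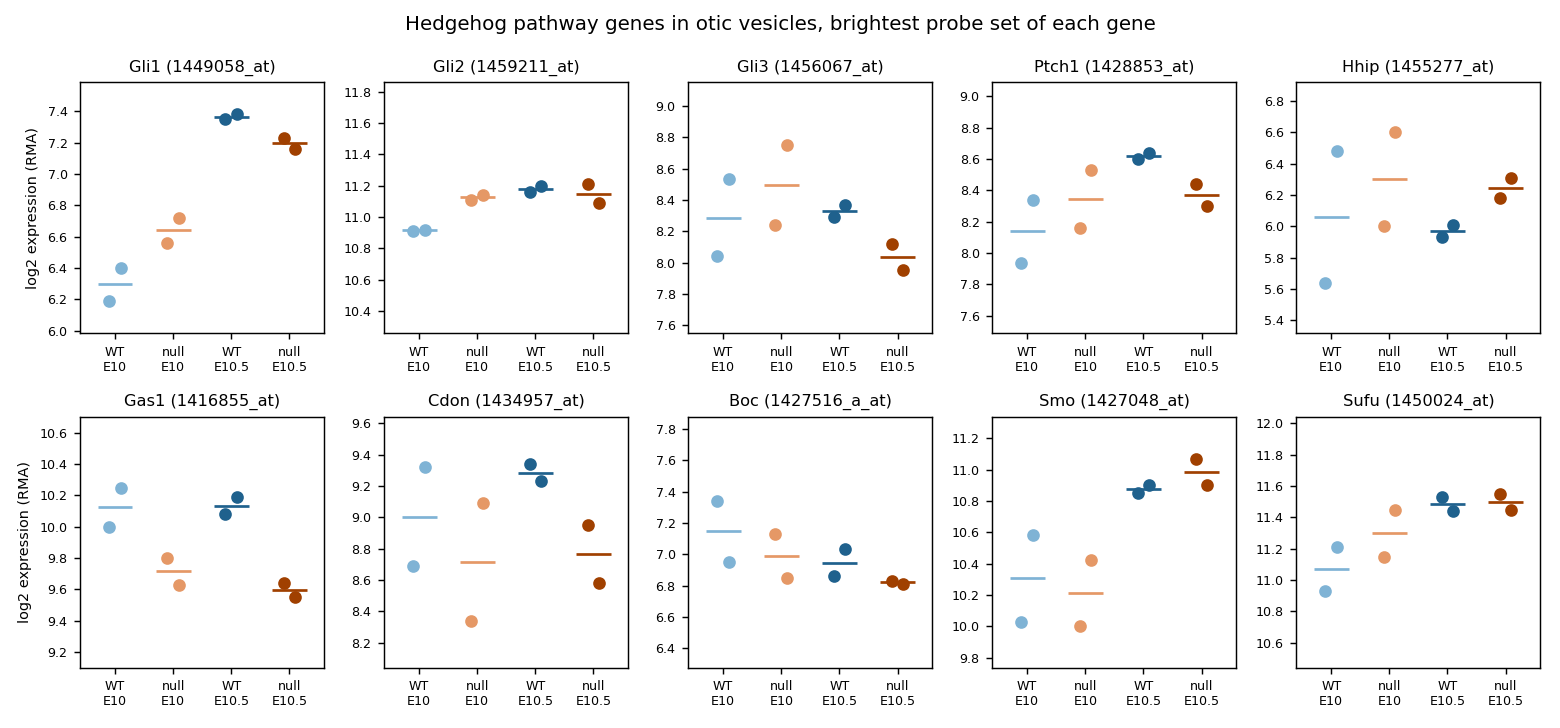
Log2 expression (RMA) of the brightest probe set of each gene in the 8 vesicle arrays, with 1 panel a gene, points for arrays and a line for each group mean. Gli1 runs from 6.19 in a wild-type E10 array to 7.38 in a wild-type E10.5 array, and the Gas1 points of the labelled-null arrays all lie under those of the wild-type arrays.

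The first comparison asked how the genes differ between E10 and E10.5. In wild-type vesicles Gli1, the target that serves as a readout of Gli activity, rose by 1.07 ± 0.16 (log2, SE), a 2.1-fold change with an adjusted p of 0.0351 and a 95% interval of 0.70 to 1.44. It read 6.19 and 6.40 at E10 and 7.35 and 7.38 at E10.5, and no E10.5 array overlapped an E10 array. This was the single member called among 22, where 1.46% of 26218 probe sets were called and 0.744% were called higher. The call was lost on leaving out wild-type E10 replicate 1, which gave 0.97. It was also lost without the first (1.085) or the second (1.055) wild-type E10.5 array, and without either labelled-null E10.5 array (1.07). Each of these fits left 1 array in a group, and calls over all probe sets fell in each of them as well. The Gli1 call was kept without both E10 replicate 1 arrays together (0.97), a fit that also left 1 array in a group.

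In labelled-null vesicles Gli1 read 6.56 and 6.72 at E10 and 7.23 and 7.16 at E10.5. The stage difference there was 0.56 ± 0.16, which did not pass the test (adjusted p 0.210). The values again did not overlap between stages, and the labelled-null arrays lay inside the range set by the wild-type arrays. The difference between the stage effects of the labelled genotypes was -0.52 ± 0.23 with an adjusted p of 1, so the stage effects were not shown to differ. No member was called in labelled-null vesicles, where 0.0763% of all probe sets were.

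Of the receptors, the brightest Ptch1 probe set, 1428853_at, read 7.94 and 8.34 in wild-type E10 and 8.60 and 8.64 in wild-type E10.5 vesicles. Its difference of 0.48 had an adjusted p of 0.251, although all later arrays were above all earlier ones, and it ranged from 0.28 to 0.68 with 1 array left out. The labelled-null arrays of this probe set read 8.16 and 8.53 at E10 and 8.44 and 8.30 at E10.5, and there the stages overlapped. The other Ptch1 probe sets went different ways in the wild type: 1439663_at differed by 0.44, whereas 1450824_at, a dimmer set at 5.54 to 6.01 over the vesicle arrays, read 5.98 and 5.72 at E10 and 5.54 and 5.55 at E10.5. Hhip, the decoy receptor that binds ligand at the cell surface, passed the filter at 1455277_at alone, at 5.64 and 6.48 in wild-type E10 and 5.93 and 6.01 in wild-type E10.5, and these overlapped.

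A Ptch1 start region is shown because Ptch1 is itself a target of Gli factors. This start lies inside the annotated gene (63508328 to 63573460 on chromosome 13), not at its outermost 5′ end, which was not searched. The sequence is RefSeq's, GRCm38.p6, chr13:63565686-63565985 on the minus strand, written 5′ to 3′ from 250 bases before the start to 50 after it, with the first transcribed base in capitals.
Ptch1: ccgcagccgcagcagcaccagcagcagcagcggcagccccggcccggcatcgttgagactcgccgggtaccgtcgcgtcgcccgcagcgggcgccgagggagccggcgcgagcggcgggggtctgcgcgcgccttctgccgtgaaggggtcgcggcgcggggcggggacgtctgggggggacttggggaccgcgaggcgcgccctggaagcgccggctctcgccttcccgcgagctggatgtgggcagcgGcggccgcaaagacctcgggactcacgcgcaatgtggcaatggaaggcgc
The window is 76.3% G and C. The Gli-binding consensus GACCACCCA, searched on both strands, is not in this window or in any of the 8 member windows in the table, and 0.253% of 32851 such windows hold it. The shorter core CCACCCA, which lies inside it, is in none of the 8 and in 9.30% of all. Gli1, the called member, and Boc had no such window and were not searched. The windows of Cdon and Gli2, like that of Ptch1, lie inside the annotated gene. Other parts of the member genes were not searched.

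Smo, the signal transducer, differed the same way in both genotypes without a call. Its set 1427048_at read 10.03 and 10.58 in wild-type E10 and 10.85 and 10.90 in wild-type E10.5 vesicles, a difference of 0.57 with an adjusted p of 0.234. In labelled-null vesicles the same set read 10.00 and 10.42 and then 11.07 and 10.90, a difference of 0.78 with an adjusted p of 0.222. With 1 array left out the wild-type difference ranged from 0.295 to 0.845. The stages did not overlap in either genotype, nor did they at 1427049_s_at, and neither set was called. Sufu, which holds Gli proteins in the cytoplasm, read 10.93 and 11.21 in wild-type E10 and 11.53 and 11.44 in wild-type E10.5 at 1450024_at, its brightest set.

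Of the other Gli genes, the activator Gli2 had no E10.5 array below an E10 array in the wild type. Its set 1446086_s_at read 9.33 and 9.84 at E10 and 10.11 and 10.17 at E10.5 in the wild type, a difference of 0.56 (adjusted p 0.193) that ranged from 0.30 to 0.81 with 1 array left out. Gli3 overlapped between wild-type stages at all 3 probe sets, at 8.04 and 8.53 then 8.29 and 8.37 for 1456067_at. In labelled-null vesicles the 3 Gli3 sets were all lower at E10.5 with no overlap, and 1456067_at read 8.24 and 8.75 at E10 and 8.12 and 7.95 at E10.5. None of these was called.

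The co-receptors Gas1, Cdon and Boc overlapped between wild-type stages at most of their tested probe sets. Gas1 read 10.00 and 10.25 at E10 and 10.08 and 10.19 at E10.5 at 1416855_at, and Cdon read 8.69 and 9.32 and then 9.34 and 9.23 at 1434957_at. Boc, a relative of Cdon, read 7.34 and 6.95 at E10 and 6.86 and 7.03 at E10.5 at 1427516_a_at. The exceptions were Gas1 at 1448494_at, higher at E10.5 in every array, and Boc at 1426869_at, lower in every array, neither of them called.

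The remaining probe sets are given by their range over the vesicle arrays. Of the untested Hhip sets, 1421426_at read 4.40 to 4.70, 1437933_at read 4.00 to 4.44 and 1438083_at read 2.30 to 2.81 over the vesicle arrays. The untested sets of Boc (1427517_at, 4.49 to 4.99) and Smo (1442215_at, 2.94 to 3.27) lay in a similar low range. Among the tested sets, Cdon at 1421452_at ran from 5.49 to 5.85, Sufu at 1420848_at from 5.25 to 5.46, Sufu at 1431713_at from 6.10 to 6.95 and Gli3 at 1450525_at from 4.69 to 5.21, and none of them was called in any comparison. In 2B1 cells the untested Gli2 sets read 3.95 to 5.04 at 1446086_s_at and 4.22 to 4.46 at 1459211_at.

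Over the 22 tested probe sets 15 were higher and 7 lower at wild-type E10.5, with a median difference of 0.08 against 0 over all probe sets. With each array centred on its median the split was 11 higher and 10 lower, so the balance of small differences depends on the scaling, while Gli1 kept a difference of 0.99 to 1.07 under the scalings tried. With an unadjusted p under 0.05 there were 5, all higher, where 19.5% of all probe sets were under that level. In labelled-null vesicles 12 were higher and 10 lower, 3 of them with an unadjusted p under 0.05 (13.5% of all probe sets), and 4 lay wholly above (22.2% of all probe sets) and 5 wholly below (20.1%) their E10 values. In the wild type, 9 members had all E10.5 arrays above all E10 arrays (29.3% of all probe sets) and 2 had all below (23.6%). Replicate 1 at E10, which belongs to the narrow arrays in both genotypes, was lower than replicate 2 in both genotypes for 13 of 22 members, or 59.1%, against 46.1% of all probe sets, and its part in the stage values was not tested. Markers of other tissue components differed between stages as well. The mean level of the otic neuron markers was 6.56 and 7.38 in wild-type E10 and 8.49 and 8.51 in wild-type E10.5. At the later stage 19 of their 22 probe sets were higher, 6 of them called. Periotic mesenchyme markers were higher in 18 of 26 probe sets, with 2 called. Otic epithelium markers were higher in 14 of 19, with 1 called higher and 1 called lower. Blood markers were higher in 12 of 12, with a median of 1.29 and 0 called. Endothelium markers were higher in 12 of 13, with a median of 0.39 and 2 called. Hindbrain, floor plate and notochord markers were lower in 9 of 10, with 0 called. Their mean level was 4.78 in the narrow wild-type E10 array, 4.66 in the other, and 4.62 and 4.57 at E10.5. The part of these markers in the Gli1 change was not tested.

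**Figure D2:**
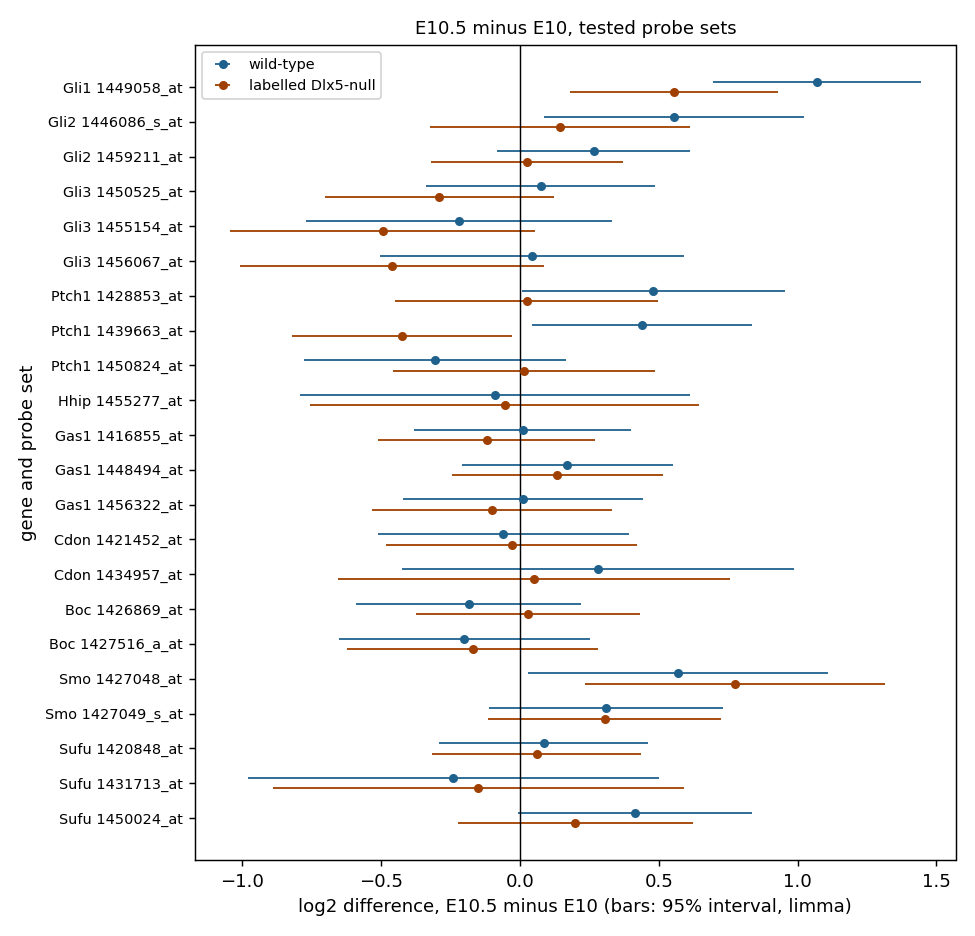
Log2 difference between E10.5 and E10 for the 22 tested probe sets in wild-type and labelled-null vesicles, with 95% intervals from limma as bars. The wild-type interval of Gli1, from 0.70 to 1.44, is the one that belongs to a called difference.

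The second comparison asked how the labelled-null vesicles differ from wild-type vesicles of the same stage. No member was called over both stages, where 0.0153% of 26218 probe sets were called, at E10, where 0% were, or at E10.5, where 0.00381% were. Counting unadjusted p under 0.05 (limma), 2 members were found over both stages, 3 at E10 and 3 at E10.5, against 4.05%, 3.28% and 2.82% of all probe sets. Both members over both stages were probe sets of Gas1, the membrane-anchored co-receptor that helps Shh reach Ptch1.

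Gas1 at 1416855_at read 10.00 and 10.25 in the E10 wild type, and 9.80 and 9.63 in its labelled-null counterpart. At E10.5 the wild-type pools read 10.08 and 10.19 and the labelled-null pools 9.64 and 9.55. All 4 labelled-null arrays lay below all 4 wild-type arrays. The difference over both stages was -0.48 ± 0.11, with an adjusted p of 0.575. At 1448494_at the wild type read 9.05 and 9.24 at E10, then 9.29 and 9.34 at E10.5, where labelled-null pools read 8.49 and 8.71, then 8.73 and 8.74. The genotypes were again fully separate, with a difference of -0.56 ± 0.11, a 95% interval of -0.81 to -0.32 and an adjusted p of 0.256. The third set, 1456322_at, read 7.72, 7.87, 7.85 and 7.76 in the wild type, overlapping 7.40, 7.79, 7.41 and 7.58 in the labelled-null pools, with a difference of -0.26 and an adjusted p of 0.999. The Gas1 sign over both stages was the same at all 3 sets under every alternative tried and with each array left out, with ranges of -0.538 to -0.438, -0.610 to -0.522 and -0.344 to -0.188 for a left-out array. The periotic mesenchyme markers, among which Gas1 is not listed, were lower in 20 of 26 probe sets over both stages, with a median of -0.15 against -0.01 over all probe sets and per-array mean levels between 5.96 and 6.58 in the wild type and between 5.87 and 6.46 in the labelled-null. Other marker sets also leaned 1 way with the label over both stages. Endothelium markers were lower in 12 of 13, blood markers higher in 12 of 12 and otic neuron markers higher in 19 of 22. Otic epithelium markers were split, with 9 higher and 10 lower. The part of any of these markers in the Gas1 values was not tested.

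The Gas1 start region is shown because Gas1 had the lowest p values among the members for the label. It lies at chr13:60177486-60177785 on the minus strand (RefSeq, GRCm38.p6), 250 bases before to 50 after the start, 5′ to 3′, with a CCAAT box and the first transcribed base in capitals.
Gas1: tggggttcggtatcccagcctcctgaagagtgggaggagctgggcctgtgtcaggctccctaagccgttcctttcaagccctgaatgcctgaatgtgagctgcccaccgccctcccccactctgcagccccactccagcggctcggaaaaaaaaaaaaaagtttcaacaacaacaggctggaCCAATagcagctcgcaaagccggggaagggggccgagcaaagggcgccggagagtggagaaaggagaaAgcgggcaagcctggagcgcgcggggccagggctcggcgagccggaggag
The CCAAT letters lie 68 to 64 bases before the start, on the minus strand of the chromosome as written. CCAAT on either strand is in 3 of the 8 member windows, those of Cdon, Gas1 and Sufu, and in 37.4% of all 32851. The homeodomain motif TAATTA, of the kind Dlx proteins bind, is in none of the 8 and in 5.29% of all windows, and its core TAAT, which TAATTA contains, is in 3 of the 8 (Cdon, Gli3 and Sufu) and in 58.0% of all.

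Among the targets, Gli1 and Ptch1 had differences of opposite sign at the stages. Gli1 was 6.56 and 6.72 in labelled-null pools of E10, over 6.19 and 6.40 in the wild type. At E10.5 it was 7.23 and 7.16, under 7.35 and 7.38. Ptch1 at 1439663_at read 6.29 and 6.49 where the wild type read 6.04 and 5.86 at E10, a difference of 0.44. Later it read 5.85 and 6.08, the wild type reading 6.39 and 6.39, a difference of -0.43. Every labelled-null array of both probe sets lay above the wild-type arrays at E10 and below them at E10.5. The interaction of stage and label for this Ptch1 set was -0.87 ± 0.24, with a p of 0.00762 and an adjusted p of 1 over all probe sets, where 2.06% were under an unadjusted p of 0.05 and 0% were called. It was the single member under that level. The Ptch1 set 1428853_at overlapped at E10 and was lower at E10.5, at 8.44 and 8.30 against 8.60 and 8.64, while 1450824_at was higher, at 5.68 and 5.96 against 5.54 and 5.55. Hhip at 1455277_at was 6.18 and 6.31 against 5.93 and 6.01 at E10.5.

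Gli2, Gli3, Smo and Sufu showed no called difference. The Gli2 set 1459211_at read 11.11 and 11.14 in labelled-null pools of E10, over 10.91 and 10.92 in the wild type, and overlapped at E10.5 (11.21 and 11.09, with 11.16 and 11.20 in the wild type). The 3 Gli3 sets all lay below wild type at E10.5, with 1456067_at at 8.12 and 7.95 against 8.29 and 8.37. Of the other co-receptors, Cdon at 1434957_at read 8.34 and 9.09 in labelled-null pools of E10 and 8.69 and 9.32 in the wild type. At E10.5 it read 8.95 and 8.58, under 9.34 and 9.23 in the wild type, without overlap.

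At E10.5 11 of 22 members, of 6 genes, lay wholly below wild type, which is 50% of them against 25.3% of all probe sets, and 3 lay wholly above, against 17.8%. At E10 2 lay below, against 10% of all, and 4 above, against 8.28%. The 11 at E10.5 came from Gas1 and Gli3 with 3 probe sets each, Ptch1 with 2, and Gli1, Cdon and Boc with 1 each. The median difference over the 22 members was -0.08, against -0.03 over all probe sets. With each array centred on its median, 9 members lay wholly below (18% of all probe sets) and 7 wholly above (26%), and the Gas1 and Gli3 differences at E10.5 kept their sign. Blood markers differed with the label at E10.5, with mean levels of 8.84 and 8.80 for the wild type, below 9.76 and 9.75 for the labelled-null pools. Otic neuron markers were higher in 16 of 22 probe sets. Hindbrain, floor plate and notochord markers, which include Shh, were higher in 10 of 10. Their mean levels were 4.62 and 4.57 for the wild type, below 4.66 and 4.79 for the labelled-null pools, near the filter level of 4.65. The 4.79 belongs to the array of narrow spread, and the narrow E10 arrays read 4.78 (wild type) and 4.71 (labelled-null). The Shh sets differed by 0.115 and 0.02. Endothelium markers were lower in 13 of 13, with a median of -0.17. Otic epithelium markers were lower in 13 of 19 (median -0.09) and periotic mesenchyme markers in 17 of 26 (median -0.16). None of these marker sets was called. Their part in the members' values was not tested.

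**Figure D3:**
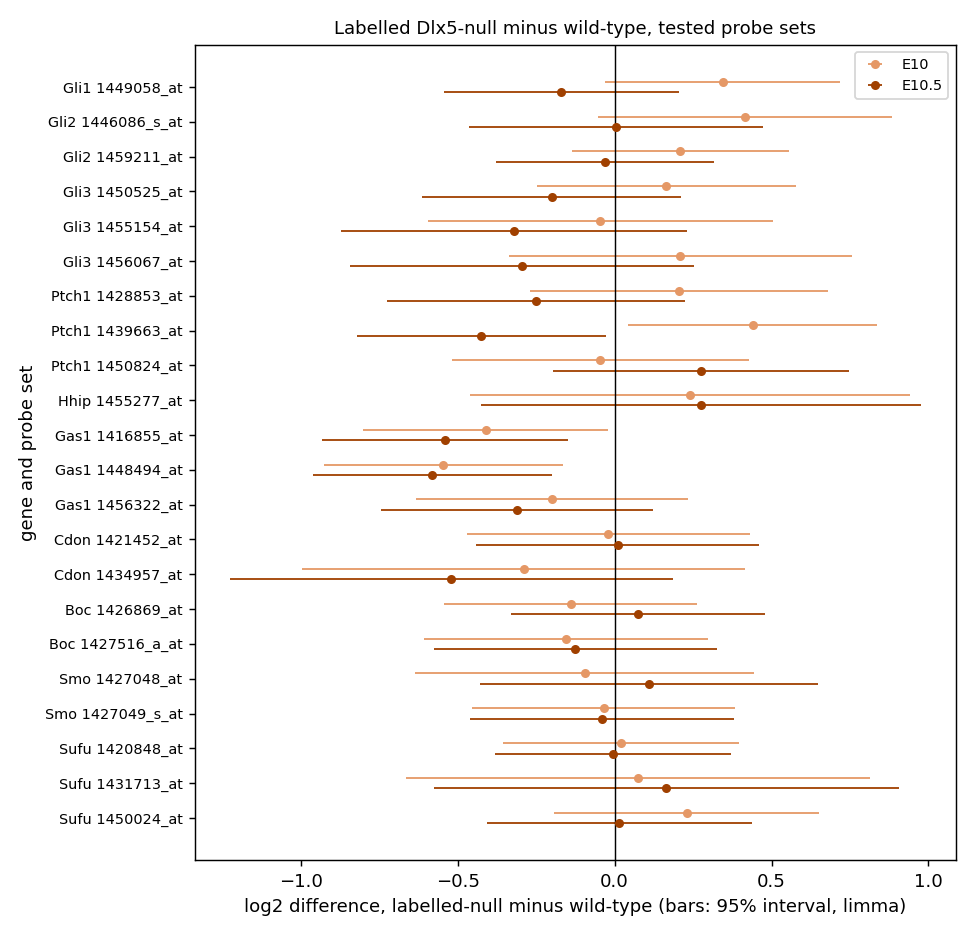
Log2 difference of labelled-null minus wild-type vesicles at E10 and E10.5 for the 22 tested probe sets, with 95% intervals from limma as bars. The 3 Gas1 sets lie left of 0 at both stages, and Ptch1 1439663_at lies right of 0 at E10 (0.44) and left of it at E10.5 (-0.43).

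The third comparison asked how 2B1 cells differ when they receive the Dlx5 vector. No member was called, and 0% of 26202 probe sets were called. At an unadjusted p under 0.05 there were 3 members, all higher (2 Gas1 sets and 1 Cdon set), against 11.1% of all probe sets, and the 2910 such probe sets of the whole comparison included no adjusted call.

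Gas1 and 1 of the Cdon sets had the largest differences. Gas1 at 1416855_at read 8.60 and 8.66 in cultures given Dlx5, and 7.79 and 8.13 in control cultures. The difference was 0.67 ± 0.18 with an adjusted p of 0.446. At 1448494_at it read 7.59 and 7.24 against 6.85 and 7.15, and at 1456322_at 6.81 and 6.79 against 6.04 and 6.45, with differences of 0.42 (adjusted p 0.457) and 0.56 (0.446). The groups did not overlap at any of the 3 sets. Cdon at 1434957_at read 9.85 and 9.81 against 9.12 and 9.55, a difference of 0.50 (adjusted p 0.446). The other co-receptor sets went either way without a call: Cdon at 1421452_at read 5.37 and 5.35 against 5.46 and 5.57, wholly lower. Boc read 6.48 and 6.62 against 6.18 and 6.37 at 1426869_at, wholly higher, and 6.65 and 6.67 against 6.80 and 6.85 at 1427516_a_at, wholly lower. With 1 culture left out the Gas1 differences ranged from 0.50 to 0.84, 0.24 to 0.59 and 0.35 to 0.76, and that of Cdon at 1434957_at from 0.28 to 0.71.

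The repressor Gli3 lay lower with Dlx5 at all 3 of its probe sets, none of them called. It read 6.61 and 6.58 against 6.91 and 6.96 at 1455154_at, 7.92 and 7.78 against 8.09 and 8.37 at 1456067_at, and 4.45 and 4.51 against 4.79 and 4.72 at 1450525_at. The differences were -0.34, -0.38 and -0.28, with adjusted p values of 0.452, 0.453 and 0.50, and the groups did not overlap. Gli1, a target, read 4.74 and 4.99 with Dlx5 and 5.04 and 4.69 with the empty vector, which overlapped. The target Ptch1 read 6.13 and 5.94 against 5.95 and 6.23 at 1428853_at, also overlapping, but lay wholly lower at 1439663_at, at 4.63 and 4.58 against 4.71 and 4.64. Hhip, the third target, lay wholly lower at 1455277_at, at 4.27 and 4.28 against 4.36 and 4.62, and none of these was called. Both Dlx5 values of this Hhip set lie under the filter level of 4.36. It was tested only through its empty-vector arrays, and a difference at so dim a level is uncertain. Smo at 1427048_at read 6.51 and 6.62 against 6.31 and 6.91, and Sufu at 1450024_at read 9.59 and 9.67 against 9.57 and 9.78, which overlapped as well.

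Over the 20 tested members 6 were higher and 13 lower, Gli1 having no difference, with a median of -0.05 against 0.04 over all probe sets. Wholly separate groups were found for 5 higher members (27.5% of all probe sets) and 8 lower ones (19.1%), the dim Hhip set among the lower. With each array centred on its median there were 5 higher (23.7% of all) and 9 lower (27.3%), and the members' median was -0.14. The periotic mesenchyme markers were higher with Dlx5 in 20 of 27 probe sets, with a median of 0.36, and their mean levels were 7.07 and 7.07 with Dlx5 and 6.64 and 6.93 with the empty vector. Endothelium markers were lower in 8 of 9, otic epithelium markers lower in 10 of 14, and hindbrain, floor plate and notochord markers higher in 8 of 11. The part of any of these markers in the Gas1 and Cdon values was not tested.

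**Figure D4:**
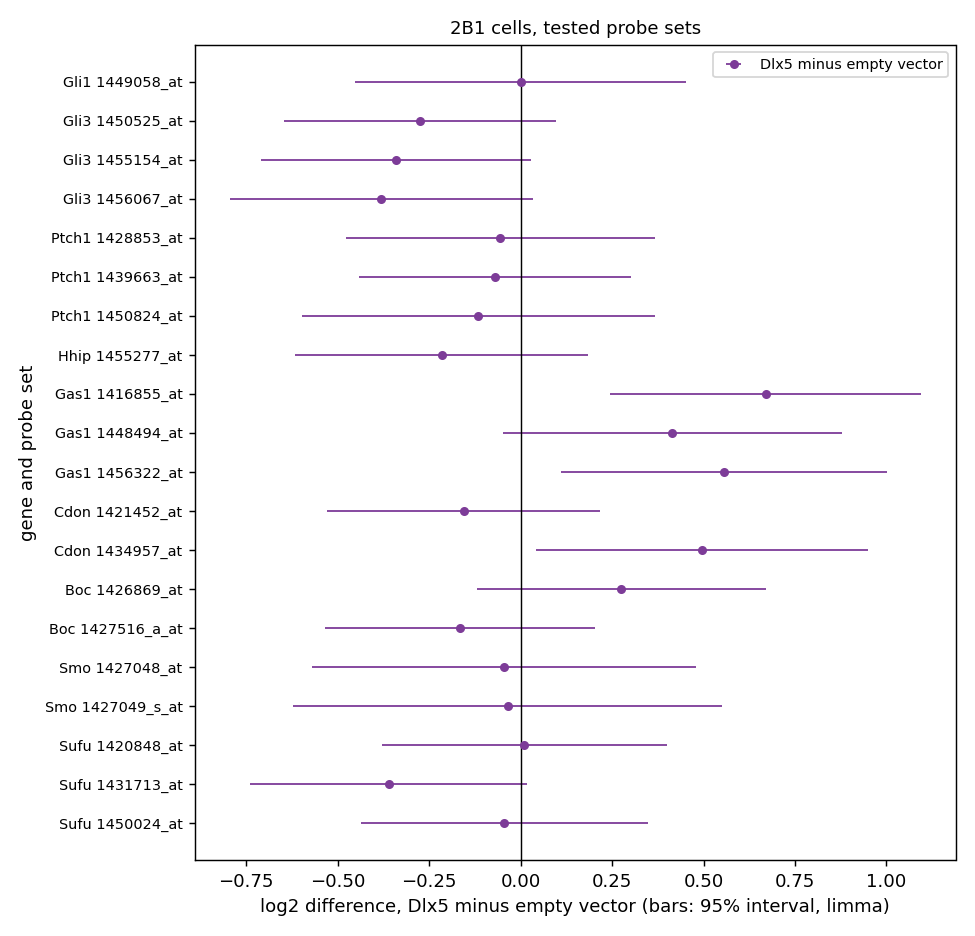
Log2 difference of Dlx5 minus empty vector in 2B1 cells for the 20 tested probe sets of 9 genes, with 95% intervals from limma as bars. The 3 Gas1 sets and Cdon 1434957_at lie highest, and the 3 Gli3 sets lie left of 0.

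Gas1 had lower values in labelled-null vesicles and higher values in Dlx5-transfected cells at each of its 3 probe sets, with no call in either. These signs were not particular to Gas1. Cdon at 1434957_at had them too (-0.405 over both stages and 0.495), while Cdon at 1421452_at was lower in both (-0.005 and -0.155). Periotic mesenchyme markers were lower in 20 of 26 probe sets and higher in 20 of 27. The share of all probe sets with this pair of signs was not counted. The arrays of these comparisons are separate, and the Dlx5 probe set was higher in the labelled-null arrays, so the sign of the vesicle difference is that of the label. In 2B1 cells that probe set read 5.14 and 4.80 after Dlx5 transfection and 4.66 and 4.79 in the controls, so a rise was not clear there. A link between the 2 comparisons was not tested.

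**Figure D5:**
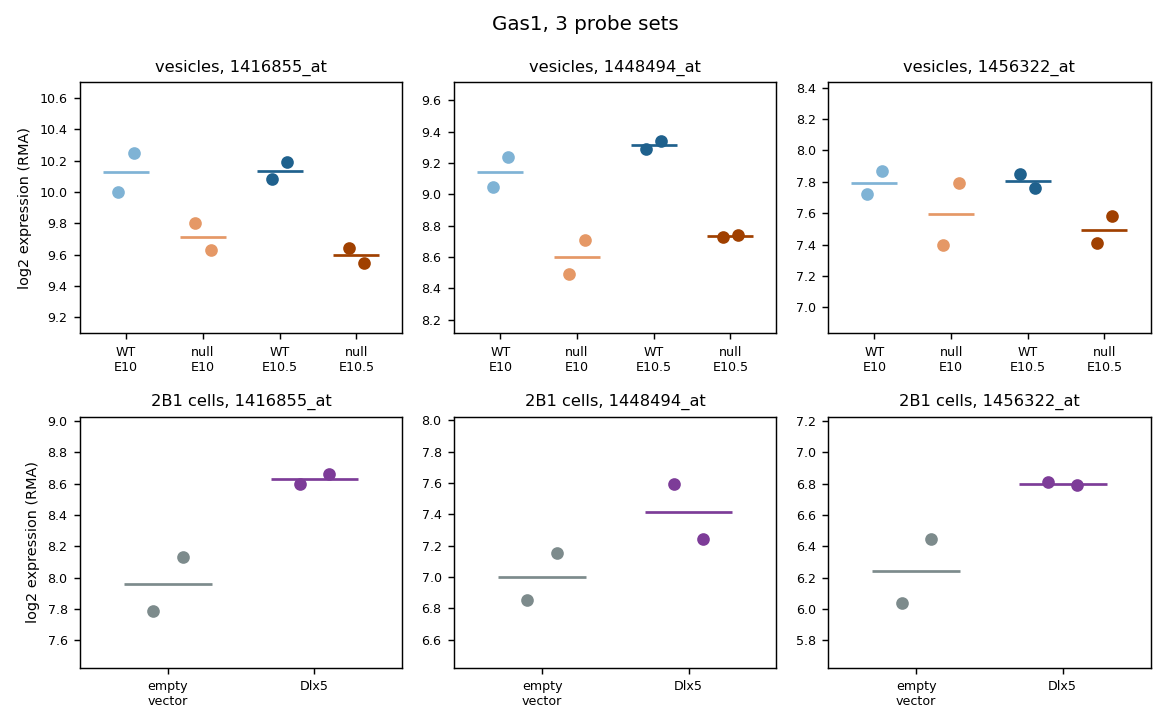
Log2 expression (RMA) of the 3 Gas1 probe sets in the vesicles (upper row) and 2B1 cells (lower row), with points for arrays and a line for each group mean, on separate axes because the sets appear separately normalized. At 1416855_at the labelled-null arrays lie between 9.55 and 9.80 and the wild-type arrays between 10.00 and 10.25.

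The rest of the pathway was followed through 58 listed genes, of which 54 were on the array and 49, with 101 probe sets, were tested in the vesicles. None was called (limma) for the label, the interaction, the labelled-null stages or 2B1 cells. At an unadjusted p under 0.05 there were 4 for the label over both stages, 1 at E10, 4 at E10.5, 3 for the interaction, 21 between wild-type stages and 20 between labelled-null stages, of 101 in each, and 12 of 99 in 2B1 cells. Over all probe sets the shares were 4.05%, 3.28%, 2.82%, 2.06%, 19.5%, 13.5% and 11.1% in the same order. Between wild-type stages 2 were called, both higher and both from the list of genes that respond to hedgehog in other tissues. That is 2 of 101, where 1.46% of all probe sets were called. Otx2, a homeobox gene of the ventral vesicle, rose by 2.54 ± 0.38 (adjusted p 0.0345), from 3.64 and 4.41 to 6.56 and 6.57. Both E10 values lie under the filter level of 4.65, so this probe set was tested only through its higher arrays and the size of the change against so dim a group is uncertain. It was not among those tested with the lowest 50% left out. Sfrp1, a secreted Wnt inhibitor, rose by 1.67 ± 0.31 (adjusted p 0.0498) at 1428136_at, from 7.49 and 8.21 to 9.47 and 9.56. The labelled-null arrays read 4.18 and 5.28 and then 5.84 and 5.51 for Otx2, and 7.96 and 8.73 and then 9.70 and 9.56 for Sfrp1, and the Otx2 interaction of -1.60 had an adjusted p of 1.

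Both calls were lost without wild-type E10 replicate 1 (differences of 2.16 and 1.31), without either wild-type E10.5 array and without either labelled-null E10.5 array. These fits left 1 array in a group, and calls over all probe sets fell in each of them as well. Over both stages the wider list had 59 probe sets higher and 42 lower in labelled-null vesicles, with a median of 0.04. The largest label differences of the list were Arrb1, an arrestin that acts on Smo, at 0.57, Sfrp1 at 1448395_at, at 0.54, and Dync2h1, a motor of the primary cilium, at 0.44, each with an adjusted p of 0.999. With 1 array left out they ranged from 0.192 to 0.772, 0.248 to 0.740 and 0.287 to 0.515, a move of over 1.5 times for each. Sfrp1 at 1460187_at overlapped between genotypes at both stages. It read 4.66 and 6.19 against 4.50 and 5.76 in the wild type at E10, then 7.44 and 7.01 against 7.26 and 7.27. In 2B1 cells the largest differences of the list were 1.18 for Sfrp1 at 1460187_at, -0.92 for Disp1 at 1435132_at and -0.89 for Gsk3b at 1437001_at. Disp1 releases lipid-modified ligand and Gsk3b is a kinase gene, and each of the 3 sets had an adjusted p of 0.446. All 3 were called with the replicate number as a block (adjusted p 0.000336, 0.0147 and 0.0197), and none with the numbers crossed (0.407 each). The other tested Disp1 probe set differed by only -0.06 in 2B1 cells, with an adjusted p of 0.894 (limma), so the Disp1 difference rests on 1435132_at.

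The ligand genes themselves gave no call. Shh had 2 probe sets, the lower near the filter level of 4.65, at 4.62 to 4.89 and at 5.72 to 6.04 over the vesicle arrays, Ihh read 5.37 to 6.46, and Dhh read 3.90 to 4.16 and 5.25 to 6.04. The 12 tested probe sets of ligands and release factors had 9 higher and 3 lower in labelled-null vesicles over both stages.

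The genes closest to Gli1 in the vesicles were ranked by the root-mean-square difference of centred log2 values over the 8 arrays, among 3348 genes that varied at least 0.8 times as much. They were Ppp1r13b (0.0412), Ccdc88b (0.0694) and Fgf18, a fibroblast growth factor (0.0783). For Ptch1 at 1428853_at, among 11016 genes, they were Arfip2 (0.0415), Trmt1 (0.0448) and Daxx (0.0450). All these arrays are shared by the genes compared, so the ranks describe these 8 arrays and carry no test.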

How the data were processed

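RNA of vesicle pools and 2B1 cultures was measured on Affymetrix mouse arrays, 1 for each of 12 samples. The deposited table holds log2 expression, made by the authors with RMA and Affymetrix Expression Console per the submitters' processing notes. No version is given in the sources used here. No scanner files or detection calls were used. Of 45101 probe sets, 34958 were listed with exactly 1 gene (18194 genes), 932 with several and 9211 with none. Those with 1 gene were updated through gene identifiers (34754) or an accession (1), and 203 kept the listed symbol.

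The lowest 25% by mean over the arrays of a fit were left out, leaving 26218 probe sets in the vesicles and 26202 in 2B1 cells. limma 3.58.1 under R 4.3.3 fitted the differences by lmFit and eBayes. P-values were adjusted over all probe sets by Benjamini-Hochberg, with calls under 0.05. The difference over both stages had stage as a covariate. The other vesicle comparisons used 4 group means, and 2B1 cells were fitted apart. The vesicle comparisons share arrays. No 2 arrays shared more than 2.78% of values. Fits were also run on simulated data with independent noise in each array. That noise lacks the deviations shared by same-numbered E10 arrays, so the simulation cannot vouch for the fits here. The members and lists were chosen with earlier results of these data known. Member probe sets are all accounted for; further pathway genes are named where called, or as the 3 largest in size for the label over both stages and for 2B1 cells. Alternatives changed the filter, the probe set per gene, the normalization, the eBayes settings, the replicate block and the arrays included.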

Additional observations from a re-analysis of the deposited data

Results flagged for a closer look

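For 2 probe sets every labelled-null array lay above the wild-type arrays at E10 and below them at E10.5, so the label difference had opposite sign at the stages. These are 2 of 22 members, and 2.05% of the 26218 probe sets showed the same pattern. The interaction of stage and label was -0.515 for Gli1 1449058_at and -0.865 for Ptch1 1439663_at, each with an adjusted p of 1 (limma) over all probe sets, so neither passed the test.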

How the results depend on the processing

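The member counts of the 7 comparisons were the same under every alternative except for the stage effect in wild-type vesicles. There the 1 called member, Gli1, became 0 with only the 4 arrays of the groups compared (adjusted p 0.0821) and 0 without the 3 arrays of narrowest spread (0.0946), an alternative chosen after seeing the data, and ranged from 0 to 1 with 1 array left out. Over Gli1's alternatives the adjusted p ran from 0.0221 to 0.388. No called result changed sign under an alternative. The Sfrp1 call was also lost with no filter on dim probe sets (0.0522), and both wider calls with only the 4 arrays (0.0525 for Otx2, 0.0816 for Sfrp1) and without the 3 narrow arrays (0.0946 each). Calls over all probe sets moved more. Wild-type stage gave 384, and 725 with arrays centred on their median, 752 with eBayes trend, 1164 with quantile normalization again, 27 with only the 4 arrays, 1894 without both E10 replicate 1 arrays and 0 without the 3 narrow arrays (8106 at an unadjusted p under 0.05, limma). Labelled-null stage gave 20, and 3 with 1 probe set a gene, 6 with the lowest 50% left out, 36, 137 and 94 with centring, trend and quantile normalization, 9 with only the 4 arrays, 258 without both E10 replicate 1 arrays and 0 without the narrow arrays (5130 unadjusted). The label over both stages gave 4, and 10 with trend, 1 with the lowest 50% left out, 34 without both E10 replicate 1 arrays, 0 with the level of Eif2s3y, a Y-linked gene, as a covariate (2737 unadjusted) and 0 without the narrow arrays (2269 unadjusted). At E10.5 it gave 1, and 37 both with only the 4 arrays and without both E10 replicate 1 arrays, where at E10 the latter gave 4 against 0.

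The replicate number was also tried as a block. The titles give the numbers used for the block, the correlations and the left-out arrays, whereas the descriptions of the second E10.5 replicates call them the first. Whether the number marks a pairing is not settled. Same-numbered arrays correlated at 0.676 between genotypes at E10, where both first replicates had the narrow spread. The value was 0.049 at E10.5, where titles and descriptions conflict. For the label at E10, 2767 probe sets had an unadjusted p under 0.05 (limma) with the block and 861 without it, with 0 called either way. With the block, 1 member was called between wild-type stages and 0 in each other comparison, Gli1 keeping an adjusted p of 0.0466. Over all probe sets the block gave 25 calls against 4 for the label over both stages, 11 against 1 at E10.5, 265 against 384 between wild-type stages, 21 against 20 between labelled-null stages and 347 against 0 in 2B1 cells, where replicates that correlated at -0.121 gave 0 when crossed (3182 at an unadjusted p under 0.05, limma), a pairing added after seeing the data.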
